A study of Mus musculus with 6 samples.

Results

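Genes of cholesterol and fatty acid synthesis were followed in islets of Langerhans, the endocrine part of the pancreas, from male mice at postnatal day 30 whose mothers had received bisphenol-A or vehicle in pregnancy. The 34 genes were taken by symbol from the known pathway, with earlier results of these data known. Of them, 33 had at least 1 probe set annotated to that gene alone, among 18193 genes so represented. Acat2 is not analysed here. Each gene was read from its brightest probe set, the one with the highest mean log2(signal + 1) over the 6 arrays. All 33 passed the filter on dim probe sets, which left 13193 genes.

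The groups were BPA10 and BPA100, male offspring of mothers that received bisphenol-A from gestation day 9 to day 16, at a daily dose of 10 or 100 µg/kg, and vehicle, male offspring of mothers given vehicle over the same days. Bisphenol-A is a plastics monomer that binds estrogen receptors. All were wild-type mice of the OF-1 stock, which is outbred, and each group had 2 arrays. The BPA10 arrays carried RNA of 1 mouse (replicate 1) and of 2 mice (replicate 2), the BPA100 arrays RNA of 1 mouse each, and the vehicle arrays RNA of 5 mice (replicate 1) and of 1 mouse (replicate 2). Litters are not given in the labels used here, so p-values measure only the spread between these arrays, and the number of arrays limits the precision. Signals are MAS5 intensities scaled to one trimmed mean per array (150.00 on every array, with 2% left out at each end). Differences are of group means on the log2(signal + 1) scale with a moderated standard error (SE), which understates changes of dim probe sets.

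Islet hormone transcripts were among the brightest signals on all arrays. Gcg, the glucagon gene, measured 12171 and 11487 in BPA10 islets and 11285 and 9308 in BPA100 islets, against 8754 and 9465 in vehicle islets. Acinar cells, the enzyme-secreting cells of the exocrine pancreas, were also represented: Prss2, a trypsinogen gene, read 13512 and 13057 in BPA10 islets and 13212 and 10151 in BPA100 islets, against 10094 and 7436 in vehicle islets. Fewer cells of a type and less RNA per cell cannot be told apart in such preparations. Over tested probe sets, arrays of one group correlated at 0.968, and the lowest and highest values of any pair of arrays were 0.945 and 0.975.

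Cholesterol is built from acetyl-CoA through mevalonate and isoprenoid units to squalene, which is closed into a ring and trimmed step by step to the final sterol. Fatty acids are built from the same acetyl-CoA with NADPH, then elongated and desaturated. Transcription of both routes is driven by the SREBP factors, encoded by Srebf1 and Srebf2. They are held in the endoplasmic reticulum with their escort Scap by the Insig proteins when sterols are plentiful, and are released for cleavage when sterols run low. Insig1 is itself a target of SREBP. In beta cells, cholesterol content affects insulin granule formation and exocytosis.

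The promoters of these genes were read for short elements that the choice of members did not use. Some were present in most of them and others in few. RefSeq promoter sequences (GRCm38.p6) were held for 26 of the 33 genes, and the 250 bases before each start site were searched on both strands. CCAAT, the element bound by NF-Y, a partner of SREBP at sterol genes, was present in 21 of the 26 (80.8%), against 40.1% of the 10634 tested genes with a promoter entry. GGGCGG, an Sp1-type box, was present in 22 (84.6%), against 61.8% of tested genes. CACGTG, an E-box that SREBP can also bind, was present in 5 (19.2%), against 9.59%. TCACNCCAC, a form of the sterol regulatory element, was found in Hmgcs1 only (3.85% of the 26), against 1.25% of tested genes, and in Hmgcs1 it lay 137 bases before the start site. Matches of different motifs were counted apart and may overlap, and a match is a description of the letters, not a binding site. The 250 bases before the start site are printed for Hmgcs1, for its sterol element, and for Idi1, Nsdhl and Insig1 as examples. In their brightest probe sets, the exposed arrays of Idi1, Nsdhl and Insig1 all lay above the vehicle arrays. The same held for other members such as Tm7sf2, Hsd17b7 and Dhcr7. Capitals mark CCAAT on either strand (ATTGG on the other) and TCACNCCAC.
Hmgcs1 (chr13:119690101-119690350, plus strand): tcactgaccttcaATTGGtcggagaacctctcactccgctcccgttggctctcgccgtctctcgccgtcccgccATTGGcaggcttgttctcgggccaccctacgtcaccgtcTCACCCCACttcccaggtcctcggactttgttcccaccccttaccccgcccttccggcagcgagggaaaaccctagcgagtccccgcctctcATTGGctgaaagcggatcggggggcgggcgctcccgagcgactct
Idi1 (chr13:8885356-8885605, plus strand): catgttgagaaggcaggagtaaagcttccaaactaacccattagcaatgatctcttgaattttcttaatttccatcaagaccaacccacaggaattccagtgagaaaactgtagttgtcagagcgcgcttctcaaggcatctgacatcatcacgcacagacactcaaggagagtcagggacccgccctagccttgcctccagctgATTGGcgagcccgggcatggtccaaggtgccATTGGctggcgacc
Nsdhl (chrX:72918271-72918520, plus strand): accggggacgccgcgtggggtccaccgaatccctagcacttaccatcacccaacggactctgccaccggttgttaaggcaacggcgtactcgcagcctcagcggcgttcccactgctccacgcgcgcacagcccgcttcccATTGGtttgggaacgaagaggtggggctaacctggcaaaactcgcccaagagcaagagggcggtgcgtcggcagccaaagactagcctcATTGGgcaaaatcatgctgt
Insig1 (chr5:28071162-28071411, plus strand): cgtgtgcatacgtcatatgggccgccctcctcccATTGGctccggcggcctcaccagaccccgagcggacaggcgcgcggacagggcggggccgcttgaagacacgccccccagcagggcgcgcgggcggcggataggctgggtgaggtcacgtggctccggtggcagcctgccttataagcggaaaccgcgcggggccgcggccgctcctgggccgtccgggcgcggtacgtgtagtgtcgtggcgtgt
These windows hold 3 copies of CCAAT for Hmgcs1, 2 each for Idi1 and Nsdhl, and 1 for Insig1.

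The genes spanned a wide range of signal. Acly and Scd2 lay at the top, with mean signals of 5841 and 4564 over the 6 arrays, at the 99.4th and 99.0th percentile of the genes tested. Hmgcs1, Msmo1, Sqle and Fdps lay between the 90.4th and the 95.5th percentile. At the other end, Mvd and Mvk had mean signals of 55.3 and 79.2, at the 21.8th and 29.9th percentile. Signals of different probe sets are not comparable as transcript amounts, so these places rank brightness only.

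With limma and Benjamini-Hochberg adjustment over the 27022 probe sets tested, 0 of the 33 genes passed at 0.05 in any comparison or in the F test over the 3 groups, as was the case for the whole table (0% of genes in each). At an unadjusted p under 0.05, 10 of the 33 were higher in BPA10 than in vehicle islets, against 3.71% of all genes tested, and 0 were lower, against 2.3%. Between BPA100 and vehicle, 5 were higher, against 2.35% of genes, and 0 were lower, against 1.78%. For the F test, 8 of the 33 had an unadjusted p under 0.05, against 4.43% of genes. The 2 comparisons with vehicle share the vehicle arrays, so their values are given side by side and not as repeats of each other.

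Most of the genes read higher in islets of bisphenol-A offspring, by small amounts. The median difference of the 33 genes was 0.29 between BPA10 and vehicle, or 1.22-fold, against 0.02 over all genes tested, with 26 differences above 0 (53.1% of all genes). Between BPA100 and vehicle the median was 0.11, or 1.08-fold, against -0.00 over all genes, with 29 above 0 (49.8% of all genes). This BPA100 result depended on single arrays. Without vehicle replicate 1 its median was 0.08, against 0.02 over all genes, with 21 above 0. Without BPA100 replicate 1 it was 0.05, with 22 above 0. Relative to the vehicle mean, the median of the 33 stood at 0.31 and 0.25 on the BPA10 arrays and at 0.20 and 0.05 on the BPA100 arrays, against -0.03 and 0.03 on the vehicle arrays. Both arrays lay above both vehicle arrays for 16 genes in BPA10 islets (19.3% of all genes tested) and for 12 in BPA100 islets (16.3%). Both lay below for 3 genes in BPA10 islets (16.2%) and for 1 in BPA100 islets (15.3%).

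**Figure D1:**
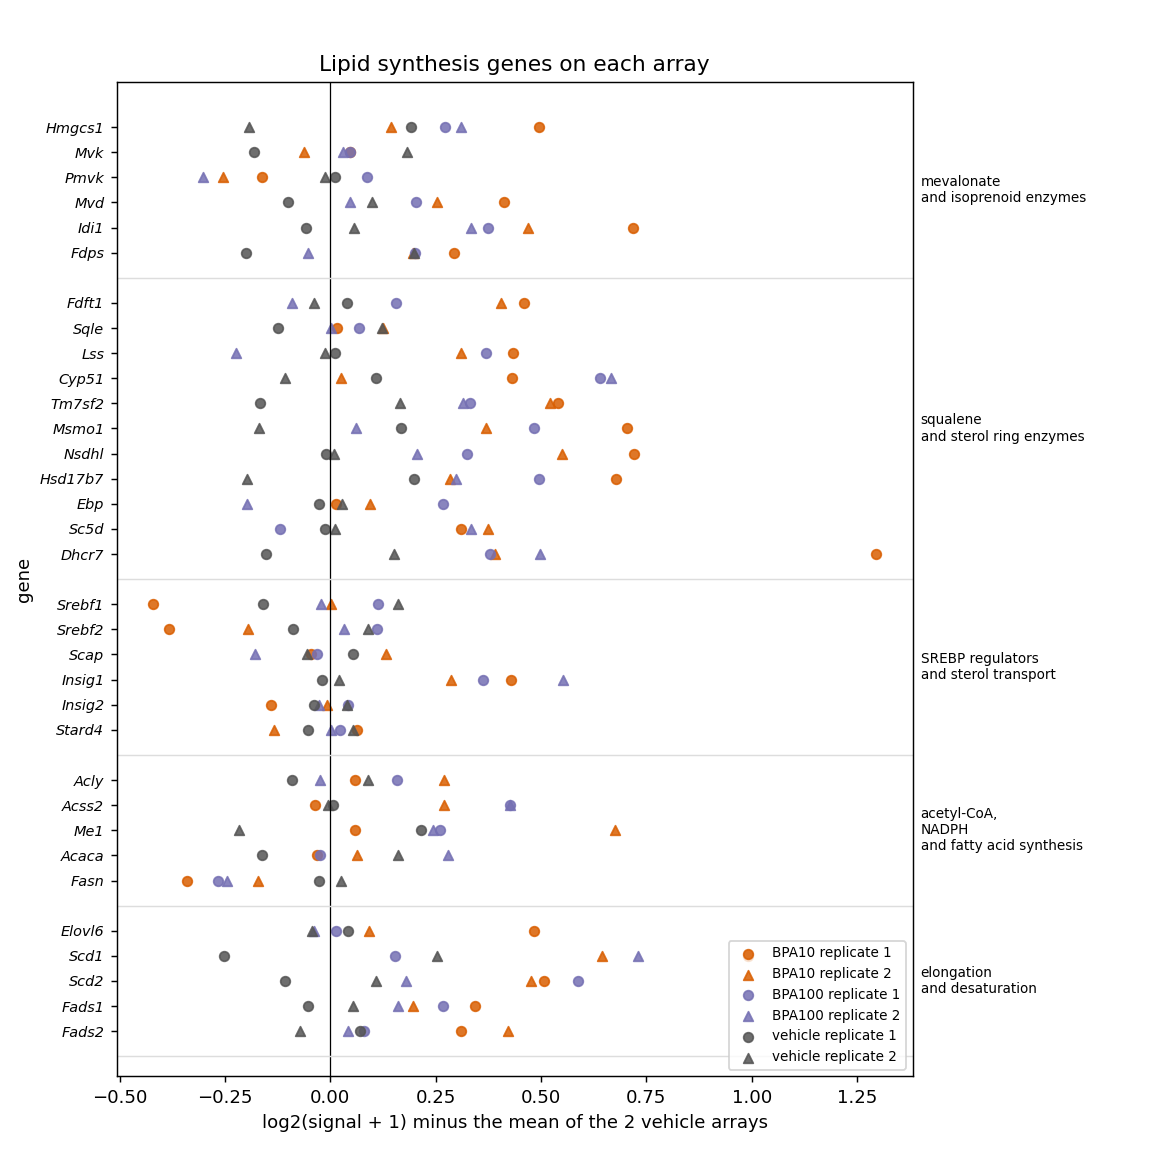
Signal of each of the 33 genes on each array, as log2(signal + 1) minus the mean of the 2 vehicle arrays (x axis), with genes in rows by role; circles are replicate 1 and triangles replicate 2. Sterol ring enzymes and desaturases lie mostly to the right of 0 on the BPA10 and BPA100 arrays, while Fasn lies to the left on all 4, and the farthest point is Dhcr7 on BPA10 replicate 1.

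The early enzymes, from acetyl-CoA units to farnesyl diphosphate, had a median difference of 0.28 between BPA10 and vehicle and 0.10 between BPA100 and vehicle over 6 genes. These medians were not stable: for BPA10 it was 0.14 without vehicle replicate 1, 0.17 without BPA10 replicate 1 and 0.16 with probe sets averaged per gene. For BPA100 it ranged from -0.06 with probe sets averaged, and -0.04 without vehicle replicate 1, to 0.22 without vehicle replicate 2. Idi1, the isomerase that makes the reactive isoprenoid unit, had signals of 708 and 595 in BPA10 islets and 557 and 542 in BPA100 islets, against 413 and 447 in vehicle islets. All 4 exposed arrays were above both vehicle arrays, and both BPA10 arrays were above both BPA100 arrays. The difference was 0.59 ± 0.14 for BPA10 (SE, 2 arrays per group; limma adjusted p = 0.475) and 0.35 ± 0.14 for BPA100 (adjusted p = 1), each with an unadjusted p under 0.05. Its other probe set differed by 0.25 and 0.27. There BPA10 replicate 2 read 197, between the vehicle values of 188 and 198 and below both BPA100 arrays.

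Hmgcs1, the synthase that makes HMG-CoA, read 2299 and 1803 in BPA10 islets and 1971 and 2023 in BPA100 islets, against 1863 and 1427 in vehicle islets. The BPA100 arrays were above both vehicle arrays, whereas BPA10 replicate 2 lay between the vehicle values. Its differences of 0.32 ± 0.17 and 0.29 ± 0.17 did not reach an unadjusted p of 0.05. The 3 other tested probe sets of Hmgcs1 had the same sign, at 0.41 to 0.47 for BPA10 and 0.18 to 0.23 for BPA100.

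The other early enzymes differed less or varied more. Mvd, the mevalonate diphosphate decarboxylase, differed by 0.33 and 0.12 at the lower and higher dose, with signals of 46 to 66 over all arrays. Fdps, which joins isoprenoid units into farnesyl diphosphate, differed by 0.25 and 0.07. The kinase gene Pmvk differed by -0.21 and -0.11, and both BPA10 arrays lay below both vehicle arrays. Mvk, mevalonate kinase, differed by -0.01 (0.02 with arrays centred on their medians) and 0.04, within signals of 69 to 89. The other probe set of Mvk, nearly as bright, gave -0.12 and -0.40, and that of Mvd 0.17 and -0.14.

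All 11 enzymes from squalene formation to the final sterol had differences above 0 in both comparisons with vehicle, under quantile normalization and median centring as well. Their median was 0.43 for BPA10 and 0.26 for BPA100. Both arrays lay above both vehicle arrays for 8 and 5 of the 11, against 19.3% and 16.3% of all genes tested. With the acinar marker mean as a covariate the BPA10 median was 0.18, and without either vehicle array, or with only arrays of 1 mouse, the BPA100 median was 0.16. On single arrays the median stood at 0.46 and 0.37 in BPA10 islets and at 0.33 and 0.20 in BPA100 islets, against -0.01 and 0.01 in vehicle islets. At the lower dose 5 of the 11 were higher at an unadjusted p under 0.05, and at the higher dose 1. The shares over all genes were 3.71% and 2.35%.

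Nsdhl, a sterol dehydrogenase that removes carbon from the ring's methyl groups, had signals of 528 and 469 in BPA10 islets and 401 and 369 in BPA100 islets, against 318 and 322 in vehicle islets. The 3 groups did not overlap. Its difference of 0.64 ± 0.14 for BPA10 had the smallest adjusted p of the 33 genes (0.445), and the BPA100 difference was 0.26 ± 0.14. This gene has 1 probe set.

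Fdft1, squalene synthase, read 914 and 879 in BPA10 islets and 740 and 623 in BPA100 islets, against 682 and 646 in vehicle islets. In this brightest probe set only the BPA10 arrays stood apart from vehicle. The differences were 0.43 ± 0.14 (adjusted p = 0.624) for BPA10 and 0.03 for BPA100. Its 2 other tested probe sets gave 0.24 and 0.43 for BPA10, and 0.15 and 0.12 for BPA100. In both of them BPA10 replicate 1 lay between the vehicle arrays. Sqle, squalene epoxidase, a rate-limiting step after mevalonate, measured 1112 and 1199 in BPA10 islets and 1154 and 1101 in BPA100 islets, against 1010 and 1198 in vehicle islets. The groups overlapped, with differences of 0.07 ± 0.13 and 0.04 ± 0.13.

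Msmo1, a sterol methyl oxidase, had signals of 1522 and 1207 in BPA10 islets and 1306 and 974 in BPA100 islets, against 1049 and 831 in vehicle islets. The difference was 0.54 ± 0.19 for BPA10 (adjusted p = 0.669) and 0.27 ± 0.19 for BPA100, and BPA100 replicate 2 lay between the vehicle arrays. Tm7sf2, a sterol reductase, read 213 and 210 in BPA10 islets and 184 and 182 in BPA100 islets, against 130 and 164 in vehicle islets. Here too the 3 groups were separate, at 0.53 ± 0.18 (adjusted p = 0.645) and 0.32 ± 0.18 above vehicle.

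Dhcr7, the reductase of the last step, measured 220 and 117 in BPA10 islets and 116 and 126 in BPA100 islets, against 80 and 99 in vehicle islets. BPA10 replicate 1 was far above the other 5 arrays, and without it the BPA10 difference of 0.84 ± 0.29 (adjusted p = 0.664) was 0.39. The BPA100 difference was 0.44 ± 0.29.

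Cyp51, the lanosterol demethylase, showed its larger difference at the higher dose. Its brightest probe set had signals of 599 and 452 in BPA10 islets and 693 and 706 in BPA100 islets, against 479 and 412 in vehicle islets. The BPA100 arrays lay above all others, at 0.65 ± 0.17 above vehicle (adjusted p = 1), and the BPA10 difference was 0.23 ± 0.17. The 2 other probe sets of Cyp51 differed from each other. One read 294 and 220 in BPA10 islets and 264 and 108 in BPA100 islets, against 218 and 184 in vehicle islets, or 0.34 for BPA10 and -0.24 for BPA100. The dimmer one gave 0.26 and 0.35, the same order as the brightest probe set, with BPA100 above BPA10 by 0.09.

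Among the remaining ring enzymes, Lss, which closes the ring, differed by 0.37 for BPA10 and 0.07 for BPA100, but its dimmest probe set gave -0.36 for BPA10. Hsd17b7, a sterol ketone reductase, differed by 0.48 and 0.40 and was above vehicle on all 4 exposed arrays. Its other tested probe sets gave 0.29 and 0.03 for BPA10, and 0.34 and 0.22 for BPA100. In the dimmer of them vehicle replicate 1 had the highest signal, 57. Sc5d, a sterol desaturase, differed by 0.34 and 0.11, and Ebp, a sterol isomerase, by 0.05 and 0.04.

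**Figure D2:**
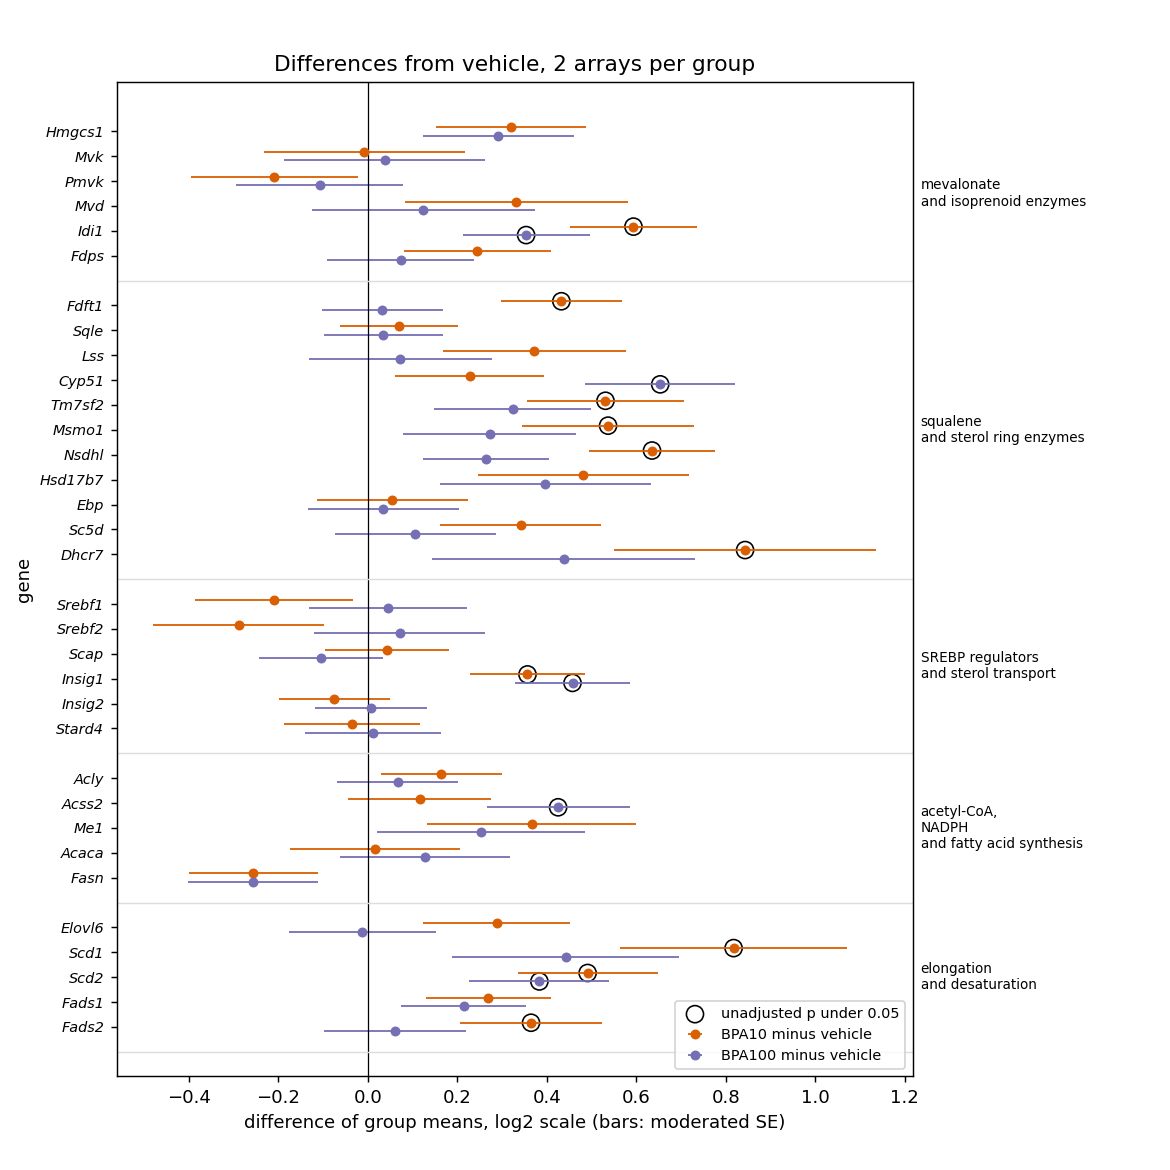
Differences from vehicle for each of the 33 genes on the log2 scale (points; bars are the moderated SE, 2 arrays per group), for BPA10 and BPA100; open circles mark an unadjusted p under 0.05. Marked genes are 10 for BPA10 and 5 for BPA100, all to the right of 0, and Fasn lies at -0.26 in both.

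The 6 regulators and sterol carriers had a median difference of -0.05 for BPA10 and 0.03 for BPA100, and over the alternatives it lay between -0.10 and 0.09 for BPA10 and between -0.04 and 0.13 for BPA100. Insig1, the sterol-dependent retention protein, had signals of 1145 and 1038 in BPA10 islets and 1095 and 1248 in BPA100 islets, against 839 and 863 in vehicle islets. All 4 exposed arrays were above both vehicle arrays, which lay close together. The difference was 0.36 ± 0.13 for BPA10 (adjusted p = 0.669) and 0.46 ± 0.13 for BPA100 (adjusted p = 1), each with an unadjusted p under 0.05. Insig2, its paralog, which is not induced by SREBP in the same way, measured 764 and 838 in BPA10 islets and 867 and 827 in BPA100 islets, against 820 and 866 in vehicle islets. Its differences were -0.07 ± 0.12 and 0.01 ± 0.12, and the groups overlapped.

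Srebf1, encoding the SREBP that mainly drives fatty acid synthesis, read 754 and 1011 in BPA10 islets and 1092 and 994 in BPA100 islets, against 903 and 1128 in vehicle islets. Srebf2, encoding the SREBP that mainly drives sterol synthesis, read 92 and 105 in BPA10 islets and 130 and 123 in BPA100 islets, against 113 and 128 in vehicle islets. Both BPA10 arrays of Srebf2 were below the other 4, by -0.29 ± 0.19 against vehicle, but its other probe set differed by 0.32. Srebf1 differed by -0.21 ± 0.18 for BPA10 and 0.05 ± 0.18 for BPA100.

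Scap, the escort of the SREBPs, had signals of 539 and 610 in BPA10 islets and 545 and 492 in BPA100 islets, against 578 and 536 in vehicle islets, and differed by 0.04 ± 0.14 and -0.10 ± 0.14. Stard4, a carrier of sterol within the cell, gave different answers by probe set. Its brightest one differed by -0.03 and 0.01. A second one, nearly as bright, read 268 and 249 in BPA10 islets and 320 and 246 in BPA100 islets, against 178 and 175 in vehicle islets, or 0.55 and 0.67.

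Genes that supply and join acetyl units for fatty acids had a median difference of 0.12 for BPA10 and 0.13 for BPA100 over 5 genes. The sign of both medians depended on the processing: with probe sets averaged per gene they were -0.20 and -0.10, and with only arrays of 1 mouse -0.03 and -0.02. For BPA10 it was 0.01 after quantile normalization, -0.03 without BPA10 replicate 2 and 0.27 without BPA10 replicate 1, and for BPA100 it was -0.02 without vehicle replicate 1 and 0.24 without BPA100 replicate 1. Fasn, fatty acid synthase, measured 266 and 299 in BPA10 islets and 280 and 284 in BPA100 islets, against 331 and 343 in vehicle islets. All 4 exposed arrays were below both vehicle arrays, opposite to most of the 33 genes, with differences of -0.26 ± 0.14 in each comparison that did not reach an unadjusted p of 0.05. Fasn has 1 probe set.

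Acss2, which makes acetyl-CoA from acetate, had signals of 232 and 287 in BPA10 islets and 320 and 320 in BPA100 islets, against 239 and 237 in vehicle islets. The BPA100 arrays stood above all others, by 0.43 ± 0.16 (adjusted p = 1), and its other tested probe set gave 0.26. Me1, malic enzyme, a source of NADPH, differed by 0.37 for BPA10 and 0.25 for BPA100. Acly, which makes acetyl-CoA from citrate, differed by 0.16 and 0.07 (-0.05 and -0.04 after quantile normalization), and Acaca, the carboxylase that commits acetyl-CoA to fatty acids, by 0.02 and 0.13. The other tested probe sets of Acly gave 0.21, -0.07, 0.63 and -1.05 for BPA10 and 0.14, -0.16, -0.38 and -0.95 for BPA100, from the brightest to the dimmest. The other probe set of Acaca, also dim, gave -0.52 and -0.34.

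Desaturases and the elongase Elovl6 had differences above 0 for 5 of 5 genes at the lower dose and 4 of 5 at the higher. Their median was 0.37 for BPA10 and 0.21 for BPA100 (0.37 for BPA100 with probe sets averaged per gene). In their brightest probe sets, all 5 had both BPA10 arrays above both vehicle arrays, against 19.3% of all genes tested. Scd1, the stearoyl-CoA desaturase of many tissues, read 326 and 256 in BPA10 islets and 182 and 272 in BPA100 islets, against 137 and 195 in vehicle islets. It differed by 0.82 ± 0.25 for BPA10 (adjusted p = 0.618) and 0.44 ± 0.25 for BPA100, and BPA100 replicate 1 lay between the vehicle arrays.

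Scd2, its paralog, was much brighter, with signals of 5222 and 5111 in BPA10 islets and 5522 and 4162 in BPA100 islets, against 3410 and 3959 in vehicle islets. All 4 exposed arrays were above vehicle, by 0.49 ± 0.16 for BPA10 (adjusted p = 0.636) and 0.38 ± 0.16 for BPA100 (adjusted p = 1). Its 2 other probe sets gave 0.50 and 0.51 for BPA10, and 0.31 and 0.49 for BPA100.

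Fads2, the delta-6 desaturase of polyunsaturated fatty acids, measured 223 and 241 in BPA10 islets and 190 and 185 in BPA100 islets, against 189 and 171 in vehicle islets. It differed by 0.37 ± 0.16 for BPA10 (adjusted p = 0.703) and by 0.06 ± 0.16 for BPA100. Fads1, the delta-5 desaturase, differed by 0.27 and 0.21, and Elovl6, which elongates palmitate, by 0.29 and -0.01 (0.00 after quantile normalization and 0.02 with arrays centred). The other tested probe set of Fads1 gave -0.05 and 0.29, and that of Elovl6 0.02 and -0.30. Those of Scd1 and Fads2 gave 0.585 and 0.556 for BPA10, and 0.29 and 0.27 for BPA100.

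**Figure D3:**
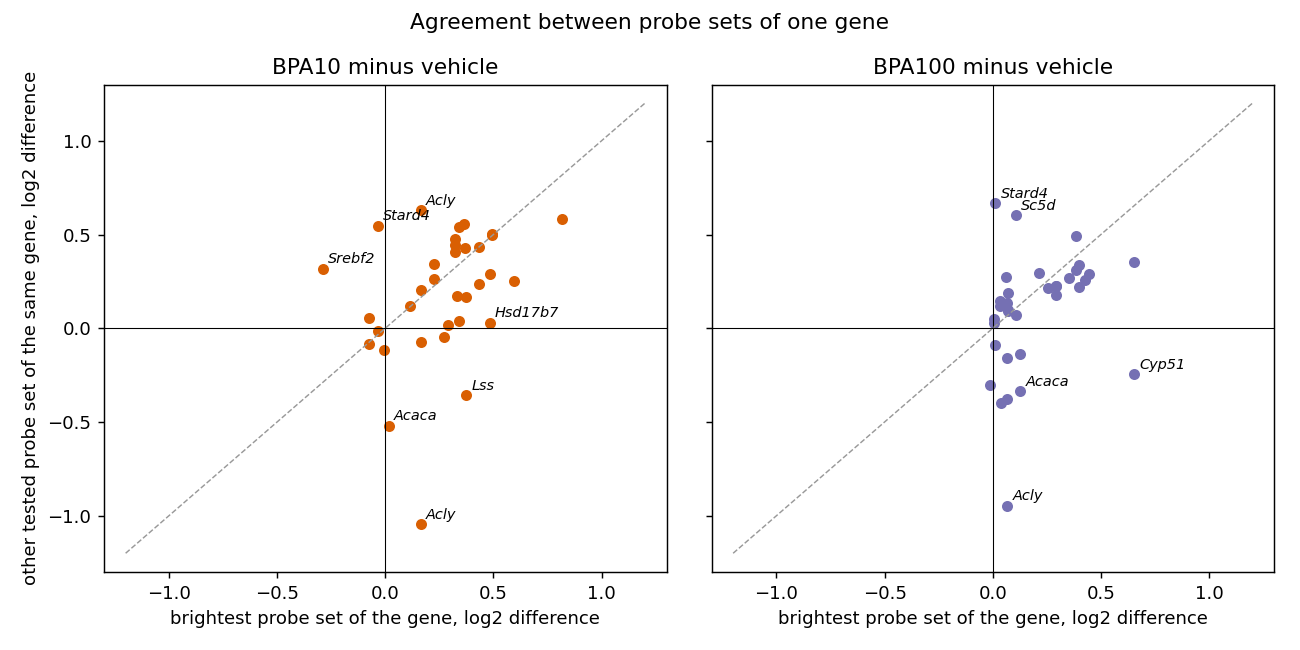
Log2 difference from vehicle of the brightest probe set of a gene (x axis) against that of each other tested probe set of the same gene (y axis), for BPA10 (left) and BPA100 (right); the dashed line marks equality. In each panel 26 of 34 points have the same sign on both axes, and named points are those far from the line, such as Stard4, Cyp51 and Acly.

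Probe sets of one gene were compared by sign. They share the same arrays, so the spread between mice does not enter. The 33 genes had 77 probe sets, of which 67 were tested, and 34 of these were second or further probe sets of 21 genes. The sign matched that of the brightest probe set for 26 of the 34 in each comparison with vehicle. Most probe sets of both kinds differed above 0 there, which alone gives many matches, so this count is a description only.

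Directly between the doses, most of the genes read lower in BPA100 than in BPA10 islets. The median difference was -0.10, against -0.02 over all genes, with 10 of 33 above 0 (47% of all genes). Nsdhl (-0.37 ± 0.14) and Fdft1 (-0.40 ± 0.14) were lower at an unadjusted p under 0.05, against 2.65% of genes, and Cyp51 (0.43 ± 0.17) was higher, against 1.66%. Both BPA100 arrays lay below both BPA10 arrays for 7 genes (17% of all genes) and above them for 3 (13.4%), which were Cyp51, Srebf2 and Acss2. The sign of other probe sets matched for 21 of 34 in this comparison, and those of Cyp51 gave -0.59 and 0.09. The other tested probe sets of Fdft1 gave -0.09, where the arrays overlapped, and -0.31. Without BPA100 replicate 2 the median difference was -0.01.

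The values also differed between arrays of one group. BPA10 replicate 1 had the highest signal of the 6 arrays for 15 of the 33 genes (45.5%, against 26.4% of all genes tested), and vehicle replicate 1, the pool of 5 mice, had the lowest for 14 (42.4%, against 12.2%). Without BPA10 replicate 1, the median difference of the 33 genes for BPA10 was 0.25, against 0.01 over all genes. Without vehicle replicate 1 it was 0.33, against 0.04. For BPA100 the median was 0.05 without replicate 1 and 0.20 without replicate 2.

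Acinar markers differed between the groups alongside these genes. All 25 measured acinar genes were higher in BPA10 than in vehicle islets, with a median difference of 0.95, and 23 of 25 in BPA100 islets, with a median of 0.47. Their summed signal was 189465 to 212283 on the BPA10 arrays and 107565 to 194623 on the BPA100 arrays, against 77511 to 150675 on the vehicle arrays, and none of them was at 0. With the acinar mean as a covariate, 6 of the 33 were higher for BPA10 and 4 for BPA100 at an unadjusted p under 0.05. The shares over all genes were 1.75% and 2.51% in that fit. The median of the 33 genes with this covariate was 0.18 for BPA10 and 0.11 for BPA100. The BPA10 median of the 11 sterol ring enzymes was 0.18 with it, against 0.43 without, and that of the elongation and desaturation genes 0.28, against 0.37. For single genes the covariate mattered unequally: the BPA10 difference of Msmo1 was 0.12 with it, while that of Idi1 was 0.61 and that of Nsdhl 0.57.

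Other cell types were recorded beside them. The median of the stellate-cell and fibroblast markers stood at 0.83 and -0.08 on the BPA10 arrays and at -0.20 and -0.70 on the BPA100 arrays, against 0.20 and -0.20 on the vehicle arrays. Fat-cell genes were read from 7 probe sets, 4 of them tested, with a median difference of 0.21 for BPA10 and -0.06 for BPA100. Among them Fabp4 read 786 and 667 in BPA10 islets and 667 and 566 in BPA100 islets, against 715 and 567 in vehicle islets, and Lpl, which other cell types also express, read 3221 to 3799 over all arrays. The more specific Adipoq, Lep and Cidec were below the filter: Adipoq, encoding adiponectin, measured 23 and 19 in BPA10 islets and 15 and 23 in BPA100 islets, against 9 and 13 in vehicle islets. The 10 beta-cell markers had a median difference of 0.19 for BPA10 and 0.10 for BPA100. Of these, 3 and 1 were higher at an unadjusted p under 0.05, against 3.71% and 2.35% of all genes tested. The part of these cell types in the lipid gene differences was not tested beyond the acinar covariate.

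**Figure D4:**
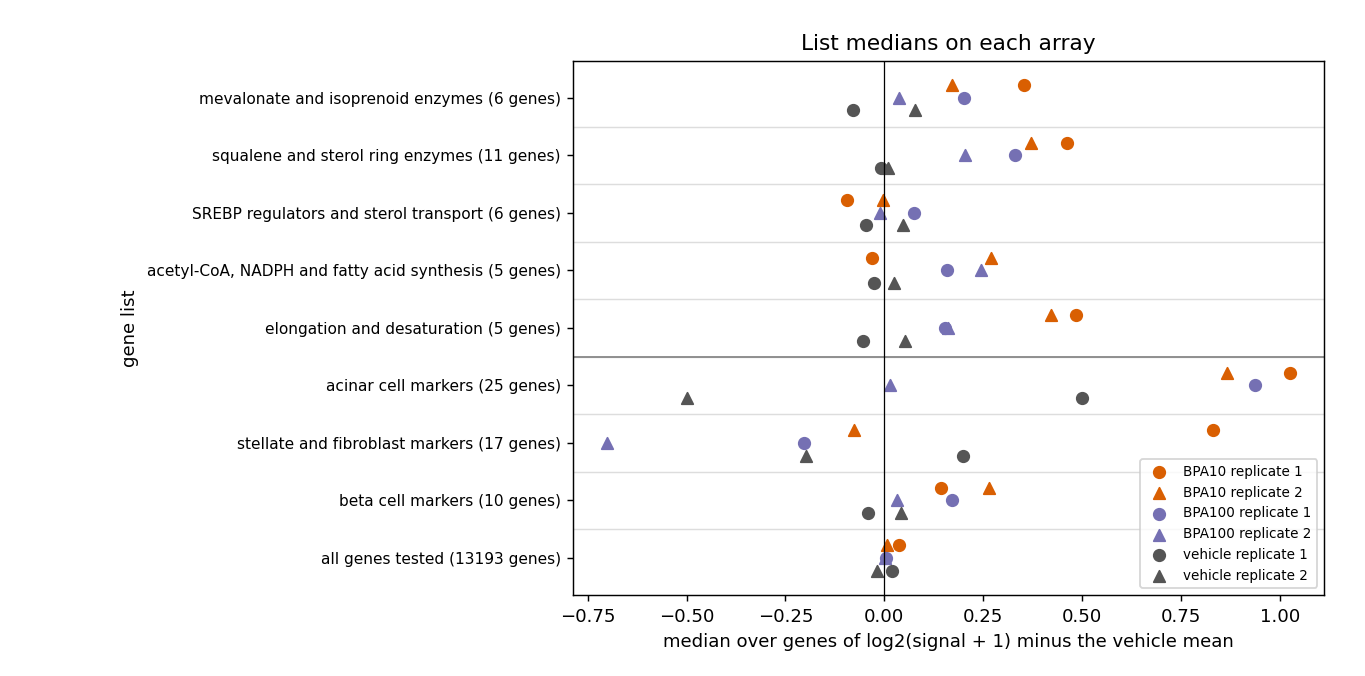
Median over the genes of each list of log2(signal + 1) minus the vehicle mean, on each array (x axis); the 5 upper rows are the lipid gene roles and the lower rows are cell type markers and all 13193 genes. Sterol ring enzymes stand at 0.20 to 0.46 on the 4 exposed arrays, and acinar markers spread from -0.50 to 1.03 over the 6 arrays.

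Neighbouring lipid genes outside the 33 had list medians between -0.07 and 0.07. These lists and the 33 were chosen with earlier results of these data known, so the contrast is a description. Genes of sterol uptake, transport and efflux had a median difference of -0.05 for BPA10 and -0.07 for BPA100 over 16 genes. At an unadjusted p under 0.05, 1 was lower for BPA10, against 2.3% of all genes, and 0 differed for BPA100. That gene was Abca1, the efflux pump for cholesterol, with signals of 1068 and 1490 in BPA10 islets and 1350 and 1835 in BPA100 islets, against 1762 and 2080 in vehicle islets. Its differences were -0.60 ± 0.20 and -0.28 ± 0.20. Apoe, a lipid carrier, differed by 0.23 and -0.28.

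The 7 further isoprenoid and sterol genes had medians of 0.01 and 0.01. Dhdds, which makes dolichol rather than sterol, read 199 and 286 in BPA10 islets and 237 and 266 in BPA100 islets, against 362 and 391 in vehicle islets, and was lower at both doses at an unadjusted p under 0.05 (-0.65 and -0.58). Ggps1, at the same branch point, differed by -0.21 and -0.27. For the 12 genes of SREBP processing and turnover the medians were 0.03 and -0.01, with 0 under 0.05, and the folding chaperone gene Hsp90b1 differed by 0.25 and 0.25 and Erlin1, a regulator of Insig turnover, by 0.28 and -0.06.

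Elongation, activation and glyceride genes, of which 23 were tested, had medians of 0.02 and -0.01. At an unadjusted p under 0.05, 1 was higher for BPA10 and 3 for BPA100, against 3.71% and 2.35% of all genes tested. Acsl3, which activates fatty acids for droplets, measured 244 and 208 in BPA10 islets and 186 and 172 in BPA100 islets, against 141 and 155 in vehicle islets, a difference of 0.60 for BPA10. Hsd17b12, an elongation reductase, measured 2131 and 2172 in BPA10 islets and 3081 and 1975 in BPA100 islets, against 1677 and 1680 in vehicle islets, a difference of 0.56 for BPA100. The 16 genes of NADPH and acetyl-CoA supply had medians of 0.07 and -0.06 with 0 under 0.05 against vehicle, and Slc25a1, the citrate carrier, differed by 0.29 and -0.06 and Pdha1 by 0.32 and -0.06.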

How the data were processed

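Expression was measured on Affymetrix arrays with biotin-labelled cRNA made from 150 ng of RNA, per the labels' protocols. Each deposited intensity is the MAS5 signal of 1 probe set on 1 array, per the submitters' processing notes (its version is not given in the sources used here). Arrays share one trimmed mean, so a signal is relative to the other probe sets of its array. Of 45101 probe sets, 64 controls were left out. In the platform annotation 34945 probe sets had a single gene, 932 had several and 9160 were unnamed; RefSeq entries (GRCm38.p6) matched all 33 genes and gave the promoter sequences.

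Values were taken as log2(signal + 1) with no further normalization. The 27022 probe sets at or above the 40th percentile of mean log2 signal were fitted in R 4.3.3 by limma 3.58.1 (lmFit and eBayes, trend on), with 3 group means over all 6 arrays, 3 residual and 5.4 prior degrees of freedom. All tests were two-sided, and p-values were adjusted by Benjamini and Hochberg's method across the probe sets fitted. The fit was tested on simulated data. Background percentages are over 13193 genes, each read from its brightest probe set.

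The members, the related lists (201 entries, 174 with a probe set of their own) and the rule for named genes were chosen with earlier results of these data known. The rule gives array values for members with an unadjusted p under 0.05 in any comparison and for regulators and key enzymes, and the 2 genes of each related list with the smallest F test p. Alternatives covered scaling, pseudocount, filter, spread, probe set choice, arrays, a block and a covariate.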

Additional observations from a re-analysis of the deposited data

How the results depend on the processing

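No member passed an adjusted p under 0.05 with limma in any comparison, or in the F test, under any alternative run (0 in each). The count of members at an unadjusted p under 0.05 was 10 for BPA10 against vehicle. It was 6 with no intensity trend and with the acinar covariate, and it varied when 1 array was left out. For BPA100 against vehicle the count was 5. It was 2 with arrays centred on the median, where 2.05% of all genes were higher and 1.06% lower. With no intensity trend it was also 2, where 1.9% were higher and 1.48% lower. With probe sets averaged per gene it was 1, close to the shares of 1.98% higher and 1.79% lower. This count also varied when 1 array was left out. For BPA100 against BPA10 the count was 3, and 1 with centred arrays (1.11% of all genes higher, 2.82% lower). It was 0 with no intensity trend (1.43% and 2.49%), and it varied when 1 array was left out. The median difference for BPA10 was 0.29 and lay between 0.18 (probe sets averaged, and acinar covariate) and 0.33; for BPA100 it was 0.11 and lay between 0.046 and 0.20, both reached by leaving out a BPA100 array. Between the doses it was -0.10, and -0.023 with probe sets averaged and -0.12 to -0.010 when 1 array was left out. The BPA100 over BPA10 difference of Cyp51 reversed to -0.023 with the mean of its probe sets, which differ in sign. The cause of the other changes was not tested. Idi1 and Nsdhl stayed under 0.05 for BPA10 in 18 of 18 alternatives, Cyp51 and Insig1 for BPA100 in 17 of 18. Other differences were lost more often: against vehicle, Fads2 for BPA10 stayed under 0.05 in 6, Scd2 for BPA100 in 7, Idi1 for BPA100 in 9, Acss2 for BPA100 in 10 (down to 0.12), Msmo1, Insig1 and Scd2 for BPA10 in 12, Fdft1 for BPA10 in 13, and Tm7sf2, Dhcr7 and Scd1 for BPA10 in 15. Between the doses, Fdft1 stayed in 11 and Cyp51 and Nsdhl in 12.

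With the replicate number as a block (replicate block) the counts were 12, 6 and 4 for BPA10 and BPA100 against vehicle and for BPA100 against BPA10. Shares over all genes moved as well. For BPA10 over vehicle, 3.71% of genes were higher in the main fit and 5.88% with the block. The share was 2.74% with no intensity trend and 1.75% with the acinar covariate. With the block, 3.24% were higher for BPA100 over vehicle, and between the doses 2.6% were higher and 4.85% lower. The labels do not tie equal numbers to a litter or day, and deviations of equally numbered arrays correlated at 0.19, 0.20 and 0.08, so the numbers were not taken as pairs. Dim probe sets near the filter limit Mvd, Mvk and the weaker probe sets of Acly and Lss.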
